A study of Homo sapiens with 6 samples.

Results

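The complement genes described here are 9 transcripts taken by symbol, 9 of the 21314 entries of the count table. They are 4 genes of activating components (C1R, C1S, C3 and CFB) and 5 genes of regulators, of which SERPING1 and CFI encode soluble proteins and CD46, CD55 and CD59 encode proteins of the cell surface. Each symbol matched 1 entry, and all 9 passed the filter on low counts. RNA was sequenced from ARPE-19, an established human retinal pigment epithelial (RPE) cell line. The control group (n = 3 libraries) had received a control lentivirus, and the PDZK1 group (n = 3 libraries) one carrying PDZK1, which encodes a scaffold protein with PDZ domains. Both groups were transduced at a multiplicity of infection of 10, selected stably with puromycin at 4 µg/ml and held in 37.5 mM glucose for 48 h, so no library here is from normal glucose or from unselected cells. Separate cultures are not stated, so the p-values measure the spread between these libraries, which may be technical.

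Complement is a cascade of plasma and tissue proteins that marks surfaces for removal and can lyse cells. In the classical pathway the proteases C1r and C1s, carried by C1q, cleave C4 and C2 to build an enzyme that splits C3. In the alternative pathway factor B combines with split C3 into a second such enzyme and amplifies the reaction. C1 inhibitor blocks C1r and C1s, factor I inactivates split C3 and C4 with the help of cofactors, and host cells carry CD46, CD55 and CD59 against their own lysis. The RPE is known as a local source of complement proteins beneath the retina, and variants of several complement genes are linked to macular degeneration.

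Total counts ran from 27970618 to 32804567 per library. PDZK1 was at 0.583 to 0.833 CPM (the count relative to the TMM-scaled library size) in the control libraries and at 77.5 to 94.2 CPM in the PDZK1 libraries, which matched the labels. The first principal component, with 33.8% of the variance, placed the control libraries at -22.96 to -19.36 and the PDZK1 libraries at 19.03 to 24.64. On the second, with 21.1% of the variance, control replicate 3 (-29.99) and PDZK1 replicate 2 (-11.64) lay lowest. Control replicates 1 (14.45) and 2 (18.79) lay highest on it. Of 17 genes listed as RPE markers, 13 passed the count filter, but their levels differed widely. A place on this list does not mean that a gene is particular to the RPE. KRT8 was at 1073 to 1221, SLC16A3 at 782 to 855, KRT18 at 699 to 826 and MITF at 35.4 to 46.5 CPM. RLBP1, LRAT, PMEL, TYRP1, MERTK, SERPINF1 and SLC16A8 passed at only 0.366 to 5.18 CPM, and RDH5 had 170 to 207 counts. RPE65 and TTR had 0 counts in every library, TYR at most 2 and DCT at most 4. BEST1 stood at 358 CPM in PDZK1 replicate 1 and at 4.32 to 5.60 CPM in the other libraries. Of 10 macrophage and microglia markers, 2 passed the count filter, CD68 at 123 to 160.2 CPM and CSF1R at 1.07 to 3.04 CPM. PTPRC, AIF1 and TYROBP had 0 counts in every library.

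Across the 9 genes, no transcript passed the threshold of an adjusted p under 0.05 in edgeR's quasi-likelihood test (0 of 9, against 3.83% of the 13645 genes tested). At an unadjusted p under 0.05 there were 2 of 9, SERPING1 and CD46, against 17.5% of all genes. DESeq2 also called 0 of 9. The log2 fold change (PDZK1 minus control) was below 0 for 7 genes and above 0 for 2, with a median of -0.24 against -0.000255 over all genes tested. The 3 CPM values of a group lay wholly to one side of the other group's for 4 genes, C1R, SERPING1 and CD59 on the lower side and CD46 on the higher side in the PDZK1 libraries, against 24.0% of all genes tested. These counts describe the members and were not tested. In bulk RNA, a lower level can mean fewer cells that express a gene or less RNA per cell, and these cannot be told apart.

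**Figure D1:**
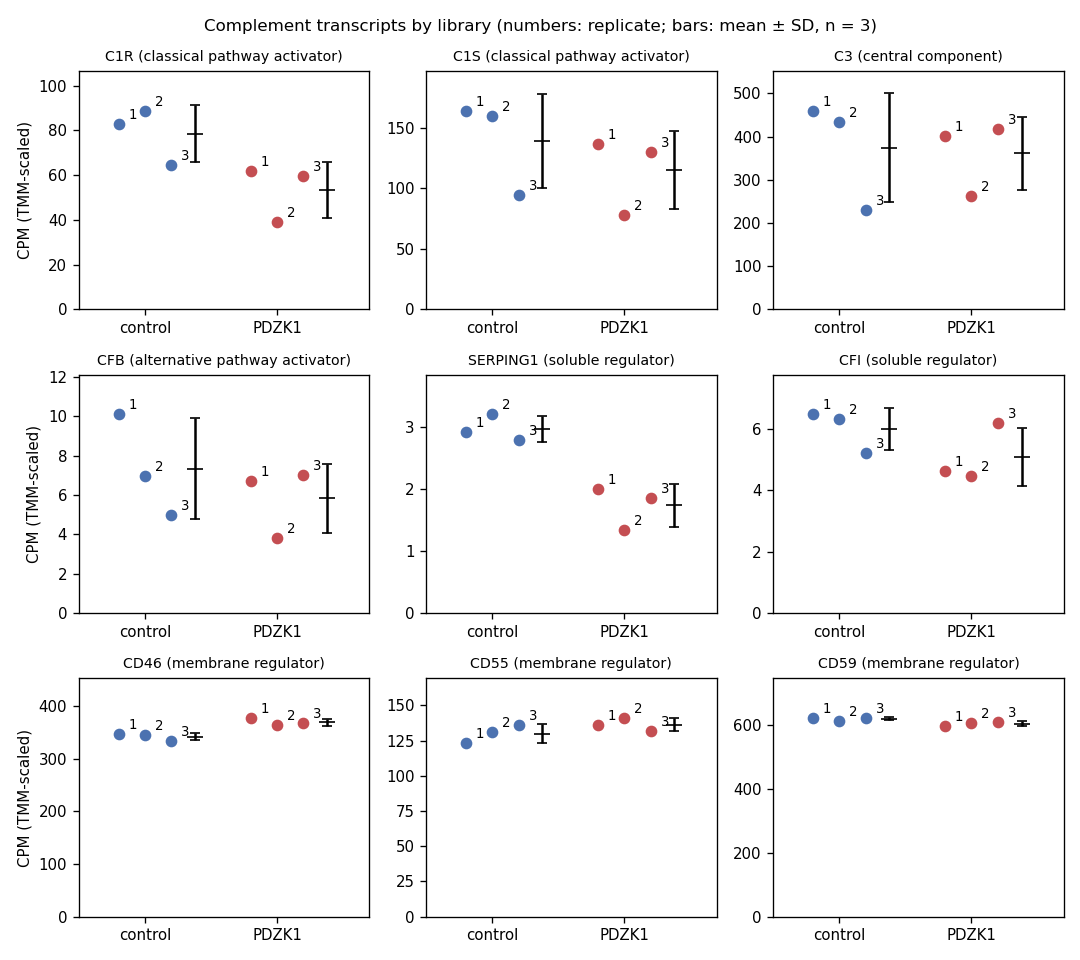
CPM of the 9 complement transcripts (y axes, linear and starting at 0) in the 3 control and 3 PDZK1 libraries, with replicate numbers beside the points and the mean ± SD (n = 3) to the right. The 4 activators spread 2.00-fold to 2.65-fold over the 6 libraries, with PDZK1 replicate 2 or control replicate 3 lowest, while CD46, CD55 and CD59 spread 1.04-fold to 1.15-fold.

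Levels were compared between genes in FPKM, the fragment count scaled by library size and transcript length. CD59 was highest at a mean of 189 FPKM over the 6 libraries, followed by CD46 at 102 and C3 at 65.0 FPKM. CD55 stood at 50.6, C1S at 41.5 and C1R at 24.6 FPKM. The remaining genes were far lower, with CFI at 2.61, CFB at 2.52 and SERPING1 at 1.12 FPKM. Neighbours in this order overlapped over the libraries for C3 and CD55, for CD55 and C1S, for C1S and C1R, for CFI and CFB, and for CFB and SERPING1. C1S exceeded C1R and CFB exceeded SERPING1 within each library, whereas the order of the other overlapping pairs changed between libraries. In every library the 3 membrane regulators together (298 to 369.9 FPKM) exceeded the 4 activators together (89.1 to 170.5 FPKM), and the 2 soluble regulators together were at 2.76 to 4.44 FPKM.

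**Figure D2:**
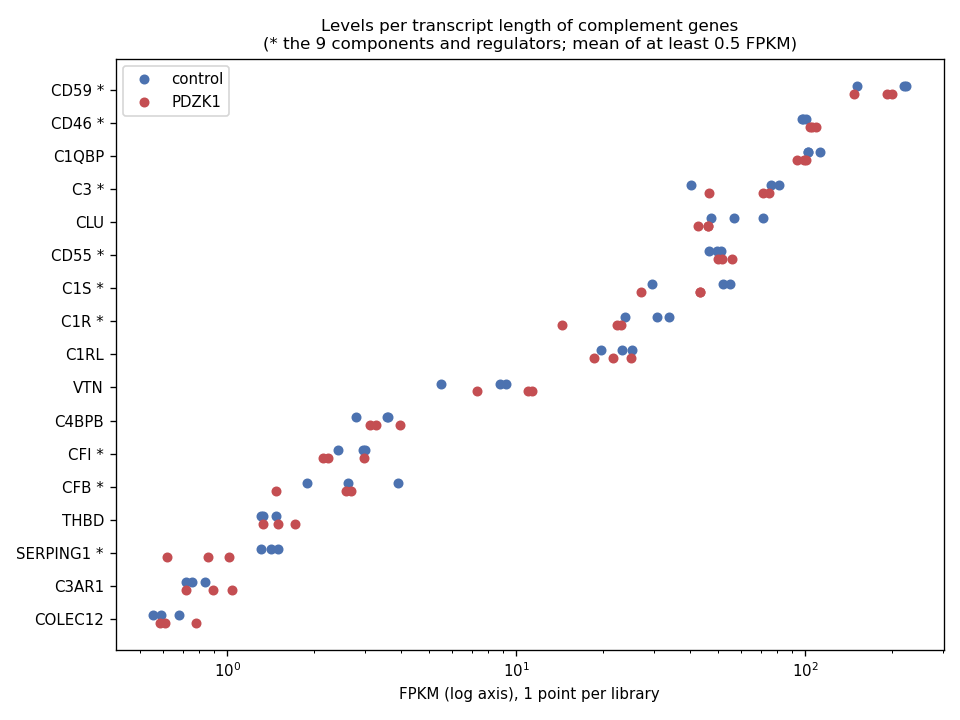
FPKM (x axis, log scale) of complement genes tested with a mean of at least 0.5 FPKM, 1 point per library, with the 9 members starred. CD59 and CD46 are highest, C3, CD55, C1S and C1R follow, and CFI, CFB and SERPING1 lie near 1 to 3 FPKM.

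The classical pathway proteases C1r and C1s are encoded by neighbouring genes on chromosome 12. C1R (ENSG00000159403, chromosome 12, 7080199 to 7092607, minus strand, GRCh38) was at 82.7, 88.7 and 64.3 CPM in control replicates 1 to 3 and at 61.9, 39.0 and 59.5 CPM in PDZK1 replicates 1 to 3. All 3 PDZK1 libraries were below the lowest control library, by a narrow margin for PDZK1 replicate 1. The means were 78.6 ± 12.7 and 53.5 ± 12.6 CPM (SD, n = 3 each), a log2 fold change of -0.56 with a 95% interval of -1.15 to 0.04 (edgeR adjusted p 0.314). C1S (ENSG00000182326, chromosome 12, 6988259 to 7071032, plus strand) was at 164, 159.5 and 94.2 CPM in the control libraries, against 137, 78.1 and 130.1 CPM with PDZK1. Here the groups overlapped, because control replicate 3 lay below PDZK1 replicates 1 and 3. Control replicate 3 and PDZK1 replicate 2 were each far below the other libraries of their group. The log2 fold change of C1S was -0.28 with a 95% interval of -1.21 to 0.65 (edgeR adjusted p 0.756). EMG1 on the same strand and LPCAT3 on the opposite strand overlap C1S in GENCODE release 29, and C1RL overlaps C1R on its strand; these neighbours had log2 fold changes of 0.11, -0.12 and -0.12, none past the threshold.

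The ratio of C1R to C1S counts was chosen for description after its values were seen. It was 0.504, 0.556 and 0.682 in the control libraries, against 0.453, 0.499 and 0.458 with PDZK1. Every PDZK1 library had fewer C1R counts per C1S count than every control library, although PDZK1 replicate 2 (0.499) and control replicate 1 (0.504) were close.

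The stretch upstream of C1R is shown because C1R had the lower, separated values among the activators. RefSeq lists 2 start sites for it, and below is the part of the window before the distal start that no GENCODE exon covers (GRCh38.p14, chr12:7092608-7092695, minus strand), 88 bases, 5′ to 3′.
C1R: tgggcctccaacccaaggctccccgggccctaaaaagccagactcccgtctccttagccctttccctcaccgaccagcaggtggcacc
Within the 250 bases before that start, a C/EBP match (TTGCNNAA, either strand) began 106 bases before the start, downstream of the printed stretch. Before the other start site, a gamma-activated site (GAS, TTCNNNGAA) and a C/EBP match were found. Of all 35116 RefSeq promoter windows of this length, 6.57% held the GAS letters and 9.05% the C/EBP letters. Promoter windows were held for 6 of the 9 genes, C1S, C3 and SERPING1 being the other three.

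C3 and CFB carry the central step and the amplification loop. C3 (ENSG00000125730, chromosome 19, 6677704 to 6730562, minus strand) encodes the protein on which all complement pathways converge, and it was the most abundant activator. Its levels were 459.7, 433 and 229 CPM in the control libraries, against 402, 263 and 418 CPM with PDZK1. One library of each group, control replicate 3 and PDZK1 replicate 2, was low, and the other four lay between 402 and 459.7 CPM. The means of 374 ± 126 and 361 ± 85.2 CPM (SD, n = 3 each) differed by less than the spread within either group. The log2 fold change was -0.05 with a 95% interval of -1.03 to 0.93 (edgeR adjusted p 0.965), which spans 0.488-fold to 1.90-fold, and leaving out single libraries turned its direction (0.12 without control replicate 1, 0.06 without control replicate 2, 0.13 without PDZK1 replicate 2).

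CFB (ENSG00000243649, chromosome 6, 31945650 to 31952084, plus strand), the gene of factor B, was much less abundant. It was at 10.1, 6.99 and 4.96 CPM in the control libraries, against 6.71, 3.81 and 7.0 CPM with PDZK1. The groups overlapped, with PDZK1 replicate 2 lowest and control replicate 1 highest. Its log2 fold change was -0.34 with a 95% interval of -1.13 to 0.45 (edgeR adjusted p 0.677), and it was -0.04 without control replicate 1. C2 and AL645922.1 overlap CFB on the same strand, with 10 to 19 counts and 0 counts per library, against 125 to 327 counts for CFB. C3 counts per CFB count ran from 45.4 to 61.9 in the control libraries and from 59.7 to 68.9 in the PDZK1 libraries.

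Of the windows searched, that of CFB held the most kinds of motif, and its sites are printed for that reason. The capitals mark the motifs, namely the core of the interferon-stimulated response element (ISRE, GAAANNGAA on either strand) in the first line, and the kappa B consensus followed by a GAS in the second. The window begins within an annotated GENCODE exon, so only the sites are given (GRCh38.p14, plus strand, chr6:31945951-31945969 and chr6:31945983-31946011).
CFB ISRE: gcagtTTCTGTTTCcttga
CFB kappa B and GAS: GGGGCCCTCCcgcttggatgTTCCGGGAA
The first line spans 144 to 126 bases and the second 112 to 84 bases before the start. The ISRE core letters occur in 6.88% of all promoter windows and the kappa B consensus in 6.88%. Of the 11 start sites held for the 6 genes, 1 had the ISRE core, 1 the kappa B consensus, 4 a GAS (the same letters in 2 overlapping windows of CD59) and 3 a C/EBP match, and 5 had none of the 4 motifs. A match describes letters only and shows no binding.

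Among the soluble regulators, SERPING1 had the most negative log2 fold change of the 9 genes. SERPING1 (ENSG00000149131, chromosome 11, 57597387 to 57614853, plus strand) encodes C1 inhibitor, the serpin that inactivates C1r and C1s. Its counts were low, 94, 99 and 77 in the control libraries, against 64, 44 and 59 with PDZK1. In CPM these were 2.91, 3.20 and 2.79 against 2.00, 1.34 and 1.86. Every PDZK1 library lay below every control library, with PDZK1 replicate 2 lowest. The means were 2.97 ± 0.213 and 1.73 ± 0.345 CPM (SD, n = 3 each), with a log2 fold change of -0.78 (SE 0.220, 95% interval -1.27 to -0.28, unadjusted p 0.00587). After adjustment over all genes it did not pass the threshold (edgeR adjusted p 0.0926, and 0.0748 to 0.268 over the alternatives).

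Because C1 inhibitor acts on C1r and C1s, the counts of the proteases were also set against those of SERPING1, a ratio chosen after the values were seen. C1S counts per SERPING1 count were 56.5, 49.8 and 33.8 in the control libraries, against 68.4, 58.2 and 70.0 with PDZK1. C1R counts per SERPING1 count were 28.4, 27.7 and 23.1 against 31.0, 29.0 and 32.0. Both ratios were higher in every PDZK1 library than in any control library, by narrow margins (58.2 against 56.5, and 29.0 against 28.4). They share SERPING1 as denominator, which had the most negative log2 fold change of the 9 genes and only 44 to 99 counts per library. Margins this narrow lie within the counting error of such counts. The ratios are given as a description of the counts, without a test.

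CFI (ENSG00000205403, chromosome 4, 109740694 to 109802179, minus strand) encodes factor I, the protease that inactivates split C3 and C4. It was at 6.47, 6.31 and 5.22 CPM in the control libraries, against 4.62, 4.48 and 6.18 CPM with PDZK1. PDZK1 replicate 3 lay among the controls, so the groups overlapped. For CFI the log2 fold change was -0.24 with a 95% interval of -0.61 to 0.13 (edgeR adjusted p 0.515). The overlapping AC126283.2 on the same strand had 0 counts in every library.

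The membrane regulators were abundant and close to level across the libraries. CD46 (ENSG00000117335, chromosome 1, 207752057 to 207795513, plus strand), the cofactor with which factor I cleaves complement fragments on host cells, was at 347, 344 and 334 CPM in the control libraries, against 377, 363 and 367 CPM with PDZK1. Every PDZK1 library was above every control library, by a small amount. The means were 341 ± 6.80 and 369 ± 7.61 CPM (SD, n = 3 each), a log2 fold change of 0.11 (SE 0.0346, unadjusted p 0.00915, edgeR adjusted p 0.118). Its 95% interval in fold terms was 1.02 to 1.14. DESeq2 gave an adjusted p of 0.0534, and over the alternatives the adjusted p ran up to 0.347.

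CD55 (ENSG00000196352, chromosome 1, 207321376 to 207386804, plus strand) encodes the decay-accelerating factor, which takes apart the enzymes that split C3. It was at 123, 131 and 136 CPM in the control libraries, against 136, 141 and 132 CPM with PDZK1, and the groups overlapped. The log2 fold change was 0.07 with a 95% interval of -0.03 to 0.17 (edgeR adjusted p 0.470), or 0.980-fold to 1.13-fold. CD46 and CD55 lie on the same arm of chromosome 1, in the cluster of genes for regulators of complement activation.

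CD59 (ENSG00000085063, chromosome 11, 33703010 to 33736491, minus strand), which blocks the membrane attack complex, was at 621, 613 and 621 CPM in the control libraries, against 595, 606 and 610.3 CPM with PDZK1. The groups did not overlap in TMM-scaled CPM, although they did in FPKM. The means of 618 ± 4.66 and 604 ± 8.14 CPM (SD, n = 3 each) differed little. The log2 fold change was -0.03 with a 95% interval of -0.11 to 0.04 (edgeR adjusted p 0.663). Scaled by library totals only, it was -0.02 (edgeR adjusted p 0.852). For CD46, CD55 and CD59 the 95% intervals lay within a 1.5-fold change in either direction, and for the other 6 genes they did not. The overlapping AL049629.2 on the strand of CD59 had 0 to 15 counts per library.

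**Figure D3:**
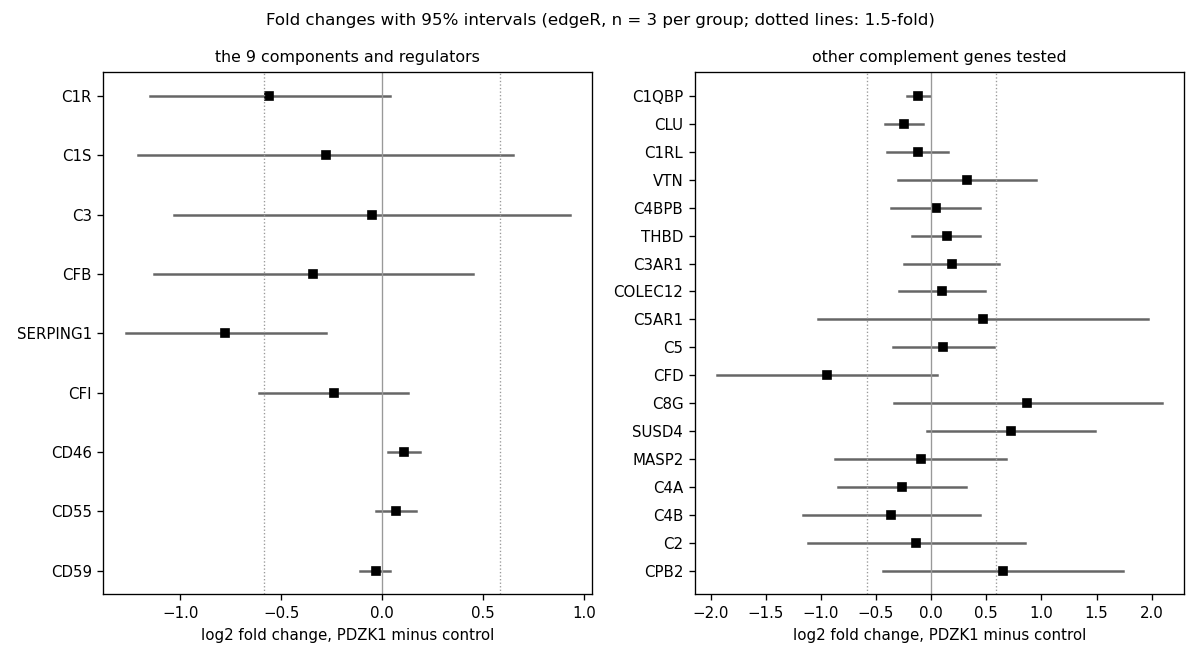
Log2 fold changes (PDZK1 minus control, x axis) with 95% intervals from edgeR (n = 3 per group) for the 9 members (left) and other complement genes tested (right, ordered by mean FPKM). The intervals of CD46, CD55 and CD59 lie between the dotted lines at 1.5-fold, while those of C1R, C1S, C3, CFB, SERPING1 and CFI reach beyond them.

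The upstream sequences of CD46 and CD59 are shown beside that of C1R because these 2 genes were the steadiest of the 9. The first line is the whole 250-base window before the first CD46 start site (GRCh38.p14, chr1:207751788-207752037, plus strand), and the second is the exon-free part before the most distal CD59 start site (chr11:33736492-33736729, minus strand), 238 bases. Capitals mark a GAS match in CD59, which began 128 bases before the start.
CD46: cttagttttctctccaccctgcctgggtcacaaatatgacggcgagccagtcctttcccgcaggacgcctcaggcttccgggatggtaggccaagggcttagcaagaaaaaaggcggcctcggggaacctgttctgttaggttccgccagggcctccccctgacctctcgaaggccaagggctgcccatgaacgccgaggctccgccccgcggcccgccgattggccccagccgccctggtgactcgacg
CD59: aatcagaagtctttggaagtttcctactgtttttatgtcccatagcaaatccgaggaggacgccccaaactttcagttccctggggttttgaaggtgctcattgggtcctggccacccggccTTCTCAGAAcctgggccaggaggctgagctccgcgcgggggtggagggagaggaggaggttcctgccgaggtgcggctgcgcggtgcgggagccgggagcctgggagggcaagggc
Neither window of CD46 held any of the 4 motifs, and the GC content of the 250-base windows was 64.8% for CD46 and 62.0% for CD59.

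CD59 varied more in the FPKM table, where it was at 223, 150.4 and 219 FPKM in the control libraries, against 199.7, 192 and 147 FPKM with PDZK1, although its CPM varied only 1.04-fold. The ratio of CPM to FPKM reflects the transcript length used, up to a factor for each library. For CD59 it was 2.78 to 3.16 in 4 libraries but 4.08 in control replicate 2 and 4.14 in PDZK1 replicate 3. After scaling by each library's median, this ratio varied 1.49-fold for CD59, more than for 97.1% of the 11842 genes with at least 0.5 FPKM in every library, where the median was 1.04-fold. For the other 8 members it varied 1.01-fold to 1.10-fold. GENCODE release 29 lists 11 protein-coding transcripts of CD59, from 584 to 7631 bases long. Whether the libraries differ in CD59 isoforms was not tested, since the tables give no values per transcript. On the FPKM scale with a pseudocount of 1 the log2 fold change of CD59 was -0.13 (limma adjusted p 0.792).

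**Figure D4:**
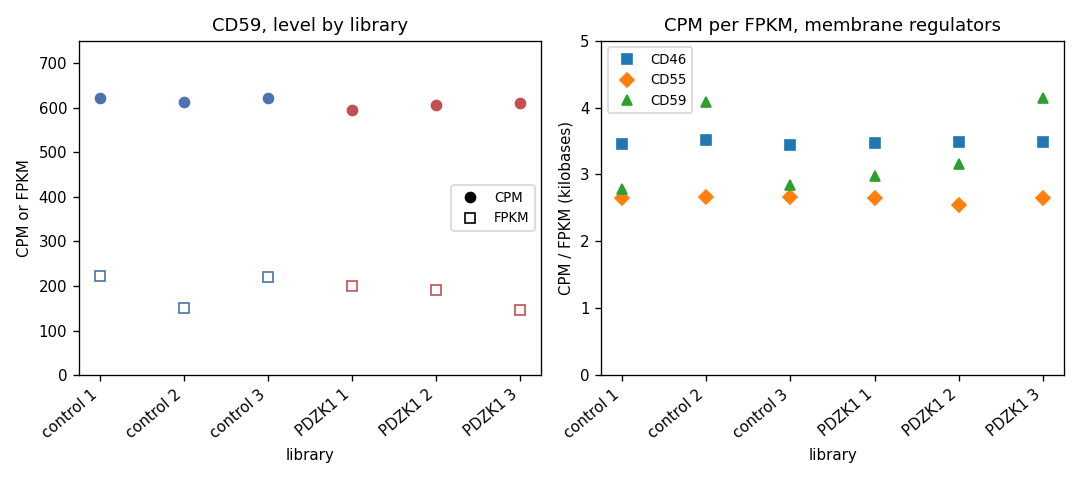
Left, CD59 in CPM and in FPKM (y axis from 0) by library. Right, CPM per FPKM for the 3 membrane regulators (axis labelled in kilobases, which holds only up to a factor for each library). CD59 sits at 595 to 621 CPM throughout while its FPKM drops to 150.4 in control replicate 2 and 147 in PDZK1 replicate 3, where its ratio reaches 4.08 and 4.14.

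Activators and membrane regulators also differed in how far libraries of a group lay apart. The SD of log2 CPM within groups was 0.313 for C1R, 0.449 for C1S, 0.472 for C3 and 0.496 for CFB, above that of 87.8% to 94.2% of all genes tested, whose median was 0.092. SERPING1 and CFI had within-group SDs of 0.220 and 0.214. In contrast, CD46, CD55 and CD59 had SDs of 0.0292, 0.0629 and 0.0158, the last above that of only 0.923% of the genes tested.

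The low libraries were partly shared between the activators. As deviations of log2 CPM from each gene's mean over the 6 libraries, PDZK1 replicate 2 was at -0.71 for C1R, -0.65 for C1S, -0.44 for C3 and -0.72 for CFB. Control replicate 3 was at -0.38 for C1S, -0.63 for C3 and -0.34 for CFB, but at 0.01 for C1R. Control replicate 1 was at 0.37 to 0.68 for the 4 activators. PDZK1 replicate 2 was also the lowest library for SERPING1 (-0.72) and CFI (-0.29).

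Genes of the NF-kappa B and acute phase list were set beside these values because several respond to the same cytokines as complement genes. The median deviation of the 22 genes tested was 0.31, 0.30 and -0.11 in the control libraries, against -0.00, -0.31 and -0.08 with PDZK1. This median was lowest in PDZK1 replicate 2, as for 3 of the activators, whereas control replicate 3 and PDZK1 replicate 3 were close to each other. Of the 22 genes, 2 passed the threshold, both lower in the PDZK1 libraries, where 3.83% of all genes passed in either direction. They were NFKBIZ, an NF-kappa B regulator (-0.56, edgeR adjusted p 0.0221), and CXCL2, a chemokine gene (-1.22, edgeR adjusted p 0.0260). CCL2 and IL6 had log2 fold changes of -0.92 and -0.91 (edgeR adjusted p 0.0767 and 0.128). The median log2 fold change of the list was -0.25, and its part in the complement values was not tested.

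The interferon response list had median deviations of -0.16, -0.05 and -0.25 in the control libraries, against 0.62, -0.16 and 0.05 with PDZK1. PDZK1 replicate 1 was highest for this list but not for any activator. Of 40 genes tested, 1 passed the threshold (against 3.83% of all genes), SAMD9 (1.67, edgeR adjusted p 0.00129), which was higher in the PDZK1 libraries, and the median log2 fold change was 0.29. STAT2 and IRF1, transcription factors of this response, had log2 fold changes of 0.25 and -0.29 (edgeR adjusted p 0.0563 and 0.0983). CD55 and CD59 are held on the membrane by a GPI anchor. Of 28 genes for assembling that anchor, 0 passed the threshold in edgeR, against 3.83% of all genes. At an unadjusted p under 0.05 there were 4 of 28, against 17.5% of all genes. Their log2 fold changes ran from -0.29 to 0.21 over the 28 genes.

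**Figure D5:**
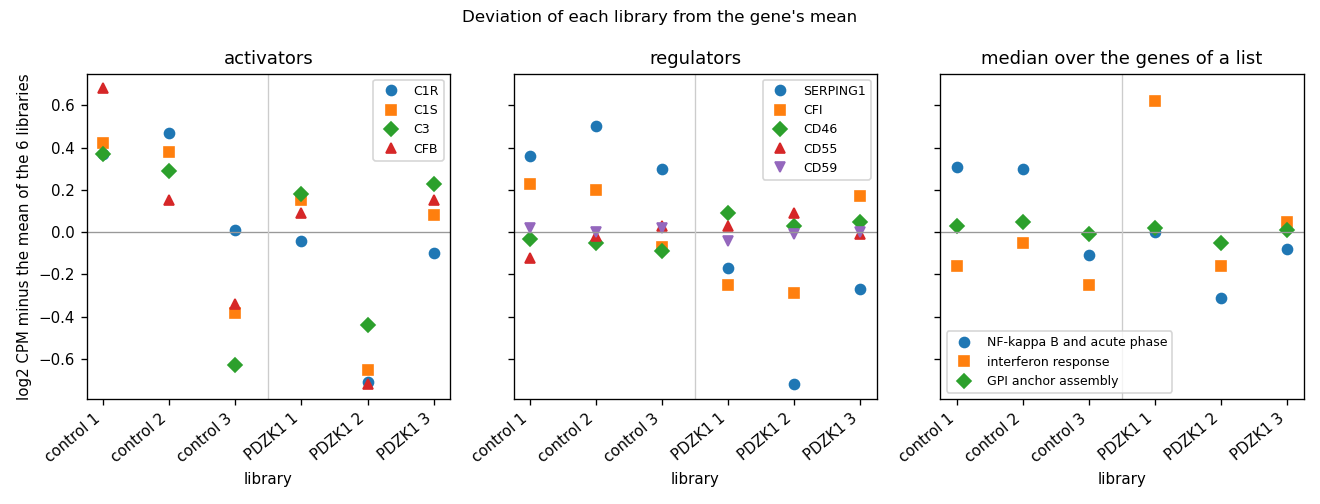
Deviation of log2 CPM from each gene's mean over the 6 libraries (y axis) by library (x axis), for the 4 activators, the 5 regulators, and as the median over the genes of 3 lists. The activators dip to between -0.72 and -0.44 in PDZK1 replicate 2, C1S, C3 and CFB also dip in control replicate 3, and CD46, CD55 and CD59 stay between -0.12 and 0.09.

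Activators were then set against regulators within each library, as the mean log2(FPKM + 1) of the 4 activators minus that of the 5 regulators. The difference was 0.20, 0.18 and -0.50 in the control libraries, against -0.05, -0.59 and 0.03 with PDZK1. The groups overlapped, and their means of -0.04 ± 0.398 and -0.20 ± 0.338 (SD, n = 3 each) were closer than the spread within either group. The difference of these means, -0.16, changed sign without PDZK1 replicate 2 (0.03). It was -0.04 without control replicate 1, -0.05 without control replicate 2, -0.39 without control replicate 3 and -0.28 without PDZK1 replicate 3. In CPM, the activators together ranged from 384 to 717 and the membrane regulators together from 1088 to 1110.3. C3 counts per CD46 count were 1.33, 1.26 and 0.688 in the control libraries, against 1.06, 0.724 and 1.14 with PDZK1, again with 1 low library in each group.

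Of 52 other complement genes on the list, 20 passed the count filter and 22 had 0 counts in every library. The transcripts of C1q, which carries C1r and C1s, were among the latter (C1QA, C1QB and C1QC), as was CR1, a receptor for split C3. Of the 6 terminal component genes, only C8G was tested, and C6 and C8A had 0 counts in every library. C4A and C4B, near-identical copies whose reads can be split between them, had 34 to 42 and 17 to 37 counts. C2 had 10 to 19 counts and C5 had 74 to 113. None of the 20 genes passed the threshold in edgeR (0 genes, against 3.83% of all genes tested). At an unadjusted p under 0.05 there were 3 of 20, against 17.5% of all genes. The groups did not overlap for 4 of the 20, a share of 20.0% against the 24.0% of all genes. The median log2 fold change was 0.10, with 12 above and 8 below 0.

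Several of these genes were described further because of their high mean FPKM. Clusterin (CLU), a soluble inhibitor of the terminal pathway, was at 128, 126 and 154 CPM in the control libraries, against 115, 115 and 113 CPM with PDZK1, a log2 fold change of -0.25 (95% interval -0.42 to -0.07, edgeR adjusted p 0.133). Vitronectin (VTN), another such inhibitor, had a log2 fold change of 0.33 (95% interval -0.30 to 0.95). The log2 fold changes of C1QBP, which can bind the heads of C1q, of C1RL, a relative of C1R, and of C4BPB were -0.12, -0.12 and 0.04, none past the threshold.

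DESeq2 called 3 of the 24 other complement genes it tested, against 5.41% of all genes it tested. Among them were CLU (adjusted p 0.0361) and ITGB2 (adjusted p 0.0309). In edgeR without control replicate 3, 2 of the 21 tested were called, against 6.32% of all genes. These were CLU (-0.15, adjusted p 0.0299) and ITGB2 (adjusted p 0.0406). Without PDZK1 replicate 2, when 2.12% of genes were called, the members called were 0 of 9. ITGB2, the shared chain of complement receptors on leukocytes, was below the count filter of the edgeR test with all libraries. It had 0, 1 and 0 counts in the control libraries, against 13, 8 and 11 with PDZK1. With each control library set to the counting floor of 3 counts, the PDZK1 level was at least 3.34-fold higher. Its partner chains ITGAM and ITGAX had 0 to 4 counts per library.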

How the data were processed

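RNA from 6 libraries, 3 per group, was read from 2 deposited tables. The labels name fastp 0.20.1, HISAT2 2.2.1 and GRCh38. The counting program, annotation and strandedness are not given in the sources used here. Estimated counts were deposited by the authors as whole numbers, unscaled, with assembled loci listed beside genes. FPKM values were deposited by the authors and scale fragments by length and library. Each table has 3 columns matching no sample here, and these were not used. Assembled loci (853 entries, 0.519% to 0.536% of counts) were left out.

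Genes passing filterByExpr (13645) were tested with edgeR 4.0.16 (R 4.3.3), TMM scaling and the robust quasi-likelihood test without covariates, adjusted by Benjamini-Hochberg, threshold 0.05. Alternatives were DESeq2 1.42.0, limma 3.58.1 (voom, and log2 FPKM with pseudocounts of 1 or 0.1, at a mean of 0.5 FPKM or unfiltered), other scalings, filters and dispersion, a 1.5-fold criterion, the replicate number as a block, and each library left out. Counting floors (3 counts) cover counting error only, since reads carry no molecular identifiers.

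The 9 members and all lists were chosen with earlier results of these data known. Named were the members, PDZK1, other complement genes past the threshold or among the 6 of highest FPKM, genes most alike to members past the threshold (none qualified), and at most 4 genes of each comparison list by smallest adjusted p. Genes outside the rule, among them ITGB2, C1QA, C1QB, C1QC, C2, C4A, C4B, C5, C8G and the markers, were named after their values were seen. Coordinates are GENCODE release 29 (GRCh38), with 20229 of 20461 identifiers matched. Promoters are from RefSeq (GRCh38.p14), 250 bases before the start. Some items of the gene lists are counted but not reported here by name.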

Additional observations from a re-analysis of the deposited data

How the results depend on the processing

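No member passed the threshold under any of the 19 alternatives, and the count of members past it was 0 in each. Keeping the assembled loci was chosen after seeing the data. SERPING1 stayed negative in all 19 (-0.89 to -0.40), as did C1R (-0.68 to -0.37), C1S (-0.50 to -0.06), CFB (-0.55 to -0.04), CFI (-0.40 to -0.14) and CD59 (-0.13 to -0.02), while CD46 (0.10 to 0.13) and CD55 (0.03 to 0.10) stayed positive. C3 changed sign in 3 of them, with a range of -0.31 to 0.13 with single libraries left out. PDZK1 passed the threshold in all 19 (4.92 to 7.21). The activator minus regulator difference between groups (-0.16) was -0.12 on log2 CPM and -0.11 with a pseudocount of 0.1, and ran from -0.39 (without control replicate 3) to 0.03 (without PDZK1 replicate 2), so its direction rests on single libraries.

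Of the other complement genes, DESeq2 called 3, and edgeR called 0 to 2 when single libraries were left out, against 0. Over all genes, 522 passed, against 814 with DESeq2, 184 on log2 FPKM with a pseudocount of 1, 185 with 0.1, 185 without the filter, 171 with the 1.5-fold criterion (fewer by construction), and 181 (without PDZK1 replicate 1) to 875 (without control replicate 3); the cause of the other differences was not tested.

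With the replicate block, 163 genes passed (159 shared with the 522), and 0 members. Over genes, the deviations of libraries with the same number from their group means had correlations of -0.046, -0.056 and -0.143. Deviations within a group of 3 libraries depend on each other, so these values cannot show whether such libraries shared a culture or day. The labels do not state it. The block changed no call of a member. With 3 libraries per group, changes of C3 between 0.488-fold and 1.90-fold lay within its interval.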

Other observations

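Of 8 hepatocyte markers, SERPINA1 alone passed the count filter, at 252 to 355 counts per library (log2 fold change 0.09, edgeR adjusted p 0.804), and ALB had at most 2 counts. The 2 macrophage and microglia markers that passed were CD68, at 123 to 160.2 CPM, and CSF1R, at 1.07 to 3.04 CPM, with log2 fold changes of -0.22 and 0.44 (edgeR adjusted p 0.134 and 0.629).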
